A study of Mus musculus with 12 samples.

Results

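Cycling NK and T cells of the neonatal mouse liver were studied as the cells that carried mRNA of the proliferation genes Top2a and Mki67 together with mRNA of the lymphocyte genes Nkg7, Cd3e or Cd3g. Counts are in unique molecular identifiers (UMIs), each of which stands for 1 captured mRNA molecule. A cell was a member when it held 500 to 50000 UMIs, at most 20% of them mitochondrial, at least 2 UMIs of Top2a and Mki67 summed, at least 2 UMIs of Nkg7, Cd3e and Cd3g summed, none of the B cell genes Cd79a, Cd79b and Igll1, none of the macrophage and endothelial genes Lyz2, C1qa and Stab2, and under 10% adult globin. Members were therefore chosen by these measured UMIs, and the rule gave 2744 of 202557 kept cells (1.35%), 1320 from control and 1424 from anemic mice. All 12 mice were C57BL6/J pups, with 6 in each group and 1 liver library per mouse. Anemic mice had blood drawn from the facial vein (20 µL per g) on postnatal days 2, 4, 6, 8 and 10 to reach a hematocrit of 20% to 24%, controls received a needle stick without blood loss, and livers were taken on day 11 as the labels give it. Pups were assigned to the groups at random within litters, and the litter of each mouse is not given in the sources used here. The livers were dissociated with enzyme, and no cell type was sorted, so the cells are those recovered after dissociation and centrifugation. The comparison asks whether phlebotomy-induced anemia (PIA) changed how many of these lymphocytes were in cycle, which lymphocytes they were, and what they expressed.

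NK cells and T cells are lymphocytes that kill infected or damaged cells and release cytokines, and the liver of young mice holds many of both, together with resident innate lymphoid cells that share NK receptors. A lymphocyte that divides copies its DNA in S phase, with the MCM helicase and PCNA, and separates its chromosomes in mitosis under cyclin B and CDK1. Top2a untangles replicated DNA and Mki67 coats mitotic chromosomes, so both mark cells from S phase to mitosis. When oxygen is short, hypoxia-inducible factors raise the genes of glycolysis and of mitochondrial clearance, and dividing lymphocytes also raise glycolysis without a shortage of oxygen.

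A few features of the libraries touch the results. They ranged from 45155527 to 74050493 UMIs and from 13936 to 21008 kept cells. Of 2743 distinct member barcodes, 1 occurred in more than 1 library, against 4791 of 197684 among kept cells. Xist was at 307 CPM or above in 4 control and 2 anemic libraries, and with Y-linked expression as a covariate 32 genes in place of 20 were called in the gene comparison given below. Summed per mouse, the members gave 645002 to 1690300 UMIs in control and 286808 to 3115130 UMIs in anemic mice, the lowest in anemia 5 with 50 cells and the highest in anemia 3 with 535 cells.

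The rule drew a line through a continuum. Exactly 2 UMIs of Top2a and Mki67 were found in 171 control and 211 anemic members, and 586 control and 600 anemic cells that met every other condition held only 1. On the lymphocyte side, 93 control and 77 anemic members held exactly 2 UMIs, and 100 control and 95 anemic cells were left out with 1. Levels of the genes of the rule are given only as a description. Top2a ranged from 945 to 1530 CPM (UMIs of the gene scaled to a common total of member UMIs per mouse) in control and from 995 to 1300.3 in anemic mice, and Mki67 from 318 to 817 and from 413 to 585. Nkg7 averaged 758 ± 79.0 CPM (SD, n = 6) in control and 712 ± 195 in anemic mice, and Cd3e 657 ± 76.8 and 488 ± 77.9.

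Genes that the rule did not read carried the same label. Beside the non-cycling NK and T cells, which are the 11742 cells that met every other condition with 0 UMIs of Top2a and Mki67, the members expressed the linker histone gene Hist1h1b at 352 ± 83.5 CPM (SD, n = 12) against 2.00 ± 1.43. The mitotic cyclin Ccna2 stood 86.0 times higher, the mitotic kinase Cdk1 at 230.1 ± 26.0 CPM against 8.57 ± 2.73, and the ubiquitin-conjugating enzyme gene Ube2c at 430.2 ± 89.9 against 10.3 ± 6.99. The replication genes Pcna (247 ± 26.7 against 81.4 ± 15.2) and Mcm5 (103 ± 8.95 against 27.2 ± 16.3) also stood higher. Each of these 6 genes was higher in the members of all 12 mice, which follows from choosing cells by cell cycle genes and was not tested.

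Top2a and Mki67 were used to find the cells, and the promoter of Top2a is shown because it carries the motifs common to late cell cycle genes. The 250 bases before its start (GRCm38.p6, chr11:99024190-99024439, minus strand, RefSeq) are printed with every CHR (TTTGAA or TTCGAA, the element of cell cycle genes) and every CCAAT box in capitals, searched on both strands.
Top2a: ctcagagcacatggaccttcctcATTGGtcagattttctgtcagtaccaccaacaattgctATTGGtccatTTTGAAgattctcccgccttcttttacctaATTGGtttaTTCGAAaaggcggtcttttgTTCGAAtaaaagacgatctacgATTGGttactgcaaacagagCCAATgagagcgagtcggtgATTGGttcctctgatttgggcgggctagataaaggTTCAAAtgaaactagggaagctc
It held 10 matches of both motifs together and the Mki67 window held 5. Over all 32851 promoters of the table, 17.1% held a CHR match and 33.8% a CCAAT match, and over the 38 promoters found for 35 of the 42 genes of the G2 and mitosis list the shares were 34.2% and 76.3%. A match of these letters is a description of the window and not a binding site.

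The members as a share of the NK and T cells spread much further in anemic than in control mice, and their centre did not differ detectably. Among all cells that met the lymphocyte conditions, members made up 16.1%, 17.9%, 13.2%, 9.49%, 16.4% and 15.6% in the 6 controls, and 14.4%, 36.1%, 28.3%, 12.5%, 6.18% and 13.2% in the 6 anemic mice. Anemia 2 and anemia 3 lay above every control, anemia 5 lay below every control, and the other 3 lay within the control range. Group means were 14.8 ± 3.00% and 18.5 ± 11.3% (SD, n = 6; exact two-sided Mann-Whitney test, p = 0.937). Deeper cells pass a UMI threshold more easily, so every cell was also thinned to 2000 UMIs, which left out 4216 control and 1764 anemic NK and T cells, of which 60 and 34 were members. Without those shallow cells the order of the means was already the opposite before any thinning, 27.4 ± 4.73% for controls and 23.9 ± 12.7% for anemic mice (exact p = 0.589). After thinning, the UMI and globin conditions of the rule were read again from the thinned counts of all kept cells of at least 2000 UMIs. Cells could therefore enter as well as leave, and anemia 2 held 1066 NK and T cells there against 1043 before. The share then averaged 22.0 ± 4.45% and 17.5 ± 10.2% (exact p = 0.485), with anemia 2 and anemia 3 above every control and anemia 4, 5 and 6 below.

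**Figure D1:**
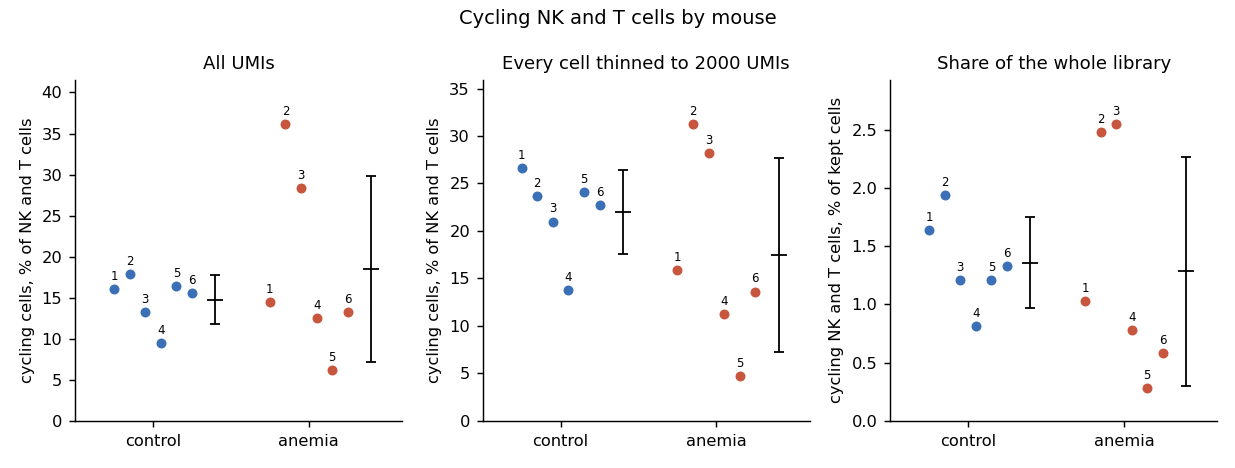
Cycling NK and T cells in each mouse (points, numbered by replicate) with mean and SD (bar), as a percentage of the NK and T cells with all UMIs, as a percentage after each cell was thinned to 2000 UMIs, and as a percentage of all kept cells. In each panel anemia 2 and anemia 3 sit above every control, while the lowest mouse is anemia 5.

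Against the whole library, the members averaged 1.36 ± 0.390% of kept cells for controls and 1.28 ± 0.985% for anemic mice (exact p = 0.455). The control values ran from 0.813% to 1.94% with a median of 1.27%, and the anemic values from 0.282% to 2.55% with a median of 0.904%. Here 2 anemic mice lay above and 3 below every control. The NK and T cells as a whole were a smaller share of the anemic libraries (6.37 ± 1.72% against 9.12 ± 1.25%, exact p = 0.0152), with 5 of 6 anemic mice below every control. Globin-rich cells are part of that denominator. Kept cells averaged 16018 per control and 17741 per anemic library, and 14714 and 13541 without globin-rich cells. The share of NK and T cells without globin-rich cells was not tested. By number, NK and T cells averaged 1462.5 ± 270 per control and 1149.5 ± 421 per anemic mouse (exact p = 0.0649). By depth, NK and T cells under 2000 UMIs numbered 703 ± 93.7 per control and 294 ± 112 per anemic mouse, and those with more 760 ± 203 and 856 ± 344. These counts by depth are a description, because the rule reads the UMIs of a cell. The non-cycling cells numbered 1145 ± 173 per control and 812 ± 231 per anemic mouse, also as a description, because the absence of Top2a and Mki67 UMIs defines them. The NK and T cells as a whole are likewise set by UMIs that the rule reads, so the tests of their share and number carry this limit.

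Members from anemic livers held more captured UMIs per cell. The median member held 4034 to 4594 UMIs in control and 5080.0 to 5718 in anemic mice, so that every anemic mouse lay above every control (4371 ± 229 against 5255 ± 242, SD, n = 6). Non-cycling NK and T cells moved the same way, from 1890 ± 75.3 to 2309 ± 213 UMIs. The median over all kept cells was 2211 ± 126 UMIs for controls and 2203 ± 414 for anemic mice. In cells outside the NK and T cells, without globin-rich cells, it was 2509 ± 188 and 2704 ± 289 UMIs. The members also carried more adult globin, a median of 0.0500 ± 0.0169% of their UMIs in control against 0.117 ± 0.0337% in anemic mice, with 5 of 6 anemic mice above every control. These depths and that share are given as a description, because the rule reads both. The part of globin in the difference of depth was not tested.

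The members were a mixture of NK-like, T-like and doubly marked cells in both groups. Klrb1c, an NK receptor, had a UMI in 44.4% of members and Ncr1, an activating NK receptor, in 35.8%, whereas the T cell receptor gene Trac had one in 39.9% and the CD3 chain Cd3d in 53.5%. In cycling B lineage cells, which should lack these genes, the shares were 0.237%, 0.132%, 0.882% and 0.711% of 7595 cells, at median depths per mouse of 3661 to 4629 UMIs against 4034 to 5718 in the members. These B lineage cells were chosen without any UMI of Nkg7, Cd3e or Cd3g, which can lower their shares of NK and T genes. Trbc2, the T cell receptor beta constant gene, which NK cells can transcribe without a rearranged receptor, had a UMI in 80.2% of members. The cytotoxic T cell co-receptor gene Cd8a reached 21.6% of members and the helper co-receptor gene Cd4 2.41%, against 0.118% and 0.171% in the B lineage cells. Trdc, the gamma-delta receptor gene, was found in 17.5%. Of resident innate lymphoid markers, Itga1 was found in 33.1%, Cxcr6 in 25.4%, Il7r in 10.1%, Tmem176a in 7.91% and Zfp683 in 4.52% of members. In the B lineage cells these shares were 1.22%, 0.145%, 53.2%, 2.84% and 0.0263%. Resident innate lymphoid cells share NK receptors, so the NK-like cells here can include them, and these kinds were not separated. Of the genes of thymic progenitors, Rag1 was found in 2, Dntt in 6 and Ptcra in 14 of the 2744 members.

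A split by UMIs that the rule did not read separated members with a UMI of Klrb1c, Ncr1 or Eomes, members with a UMI of Trac, Trbc1, Trbc2 or Cd3d, and members with both or neither. Among members with a UMI of Klrb1c, Ncr1 or Eomes, Trbc1 was found in 69.7% and Trbc2 in 77.1%, but Trac in 27.6%. The sizes of the doubly marked and NK-side classes therefore depend on counting Trbc1 and Trbc2 as T-side. Cells with both kinds averaged 50.6 ± 5.39% for controls and 51.5 ± 10.3% for anemic mice, T-side cells 42.9 ± 3.95% and 40.1 ± 7.39%, NK-side cells 3.47 ± 1.95% and 2.52 ± 1.89%, and cells with neither 3.05 ± 1.53% and 5.81 ± 4.01%. None of the 4 differences passed the exact two-sided Mann-Whitney test, with adjusted p = 0.719 to 1 over the 4 classes. Anemia 2 and anemia 3, the mice with the largest cycling shares, had the largest shares of cells with both kinds, up to 65.2%, and the smallest T-side shares, down to 29.2%. When 2 UMIs were asked of each side, T-side cells averaged 57.6 ± 3.76% for controls and 50.1 ± 5.63% for anemic mice (exact p = 0.0238), with 4 of 6 anemic mice below every control. The other 3 classes had exact p = 0.180 to 1, and the T-side p was not adjusted over the 4 classes. Members of anemic mice held more UMIs per cell, and deeper cells reach 2 UMIs of both kinds more easily. Cells with both kinds averaged 30.4 ± 4.79% for controls and 35.6 ± 8.15% for anemic mice here. The part of depth in these shares was not tested.

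**Figure D2:**
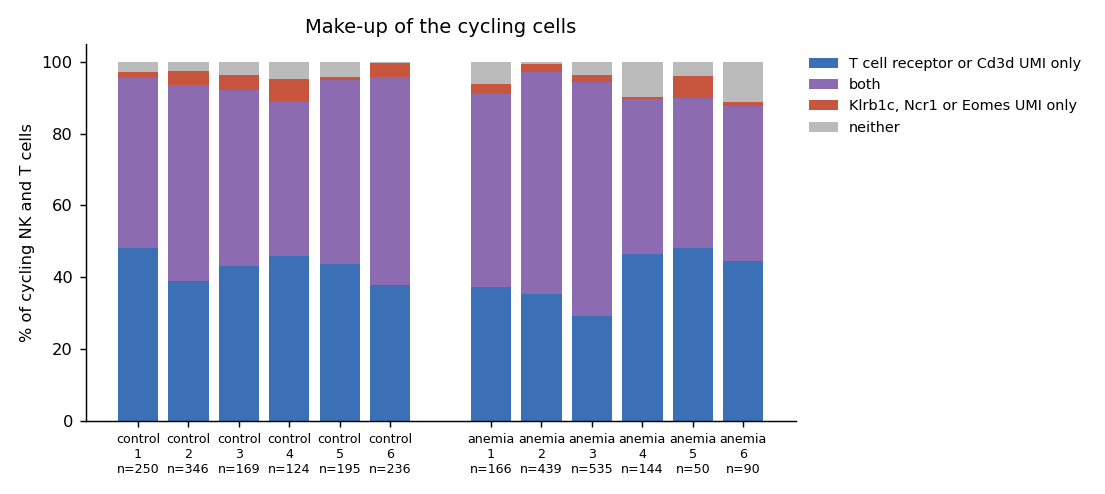
Make-up of the cycling NK and T cells of each mouse in percent, with the number of cells under each bar. Doubly marked cells make up 42.0% to 65.2% and T-side cells 29.2% to 48.0% of each library, and the NK-side class is small in every mouse. Trbc1 and Trbc2 are counted as T-side, and the class sizes depend on this.

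Pooled over all mice of both groups, the 1587 members with an NK marker UMI and the 1157 without differed in effector genes. The shares are a description and were not compared mouse by mouse. Members with an NK marker made up 64.2% in anemia 2 and 67.3% in anemia 3, the highest of all mice, so differences between mice can enter them. Gzma, a granzyme of killer cells, had a UMI in 80.5% of the first and 35.9% of the second, perforin (Prf1) in 22.8% and 4.75%, and the inhibitory receptor gene Klrd1 in 86.5% and 51.9%. Cd8a showed the reverse order, 14.3% and 31.7%, as did Cd3d, 40.4% and 71.4%. Eomes, a transcription factor of mature NK cells, was in 10.8% of members and 2.50% of non-cycling cells. By level it stood at 26.7 ± 9.30 CPM in members and 13.1 ± 6.45 in non-cycling cells, higher in the members of 12 of 12 mice, whereas Klrb1c (162 against 277) and the adaptor gene Tyrobp (566 against 1028) were lower in 11 and 12 of 12 mice.

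The position of the members within the cell cycle did not differ detectably between the groups. The summed UMIs of the 35 S phase genes relative to the 42 G2 and mitosis genes gave a log2 ratio of -0.61 ± 0.25 for controls and -0.48 ± 0.23 for anemic mice (exact p = 0.394). Controls ran from -0.92 to -0.23 and anemic mice from -0.71 to -0.15, so the groups overlapped.

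For gene expression, the UMIs of the members were summed per mouse and 6 anemic sums were compared with 6 control sums. In such sums, fewer cells of a type and less RNA per cell cannot be told apart, which also holds for the whole-library levels given below. Of 10168 genes tested, 20 were called at an adjusted p under 0.05 (0.197%), 9 higher (0.0885%) and 11 lower (0.108%) in anemic mice, and 976 had an unadjusted p under 0.05 (9.6%). A positive log2 fold change was found for 51.8% of them. The median log2 fold change over all genes tested was 0.01.

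Bnip3, P4ha1, Aldoa and Tpi1, of the hypoxia and glycolysis list, rose in the cycling cells of anemic livers. Of 27 genes in the list, all tested, 4 were called higher, none was called lower and 23 did not pass the test, 25 had a positive log2 fold change and the median was 0.57, or 0.37 without anemia 2. In 5 of the 27 every anemic mouse lay above every control, a separation that 0.669% of all genes tested showed in either direction.

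Bnip3 (chr7:138890836-138909519, minus strand, GRCm38), which directs mitochondria to autophagy, ran from 9.06 to 13.2 CPM in control mice with a median of 10.3. In anemic mice it ran from 22.0 to 53.8 CPM with a median of 37.8. Every anemic mouse lay above every control, with a log2 fold change of 1.76 ± 0.22 (SE; adjusted p = 0.00115, n = 6). P4ha1 (chr10:59323296-59373304, plus strand), a collagen prolyl hydroxylase subunit, ran from 23.9 to 36.4 CPM (median 28.1) in control and from 39.2 to 81.8 CPM (median 61.7) in anemic mice. The groups did not overlap, and the log2 fold change was 1.09 ± 0.17 (adjusted p = 0.0107).

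Aldoa (chr7:126795234-126800751, minus strand), the aldolase of glycolysis, ran from 342 to 639 CPM (median 424) in control and from 729 to 2115 CPM (median 883) in anemic mice. The groups did not overlap and anemia 2 was the highest, with a log2 fold change of 1.34 ± 0.23 (adjusted p = 0.0122). Tpi1 (chr6:124810586-124814296, minus strand), the next enzyme of the pathway, ran from 107 to 203 CPM (median 136) in control and from 221 to 513 CPM (median 240.4) in anemic mice. It gave a log2 fold change of 1.01 ± 0.20 (adjusted p = 0.0399), again without overlap. This call did not survive 7 of the 12 single-mouse omissions, where adjusted p reached 0.112.

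The remaining 23 genes of the list were not called. Pgk1, a kinase of glycolysis, came closest with 308 ± 66.5 CPM in control and 584 ± 233 in anemic mice (log2 fold change 0.94 ± 0.20, adjusted p = 0.0551). Eno1 (0.90 ± 0.21), Mif (0.74 ± 0.21), Ddit4 (0.72 ± 0.23), Pgam1 (0.72 ± 0.19), Pkm (0.69 ± 0.20), Ldha (0.58 ± 0.20) and Gapdh (0.53 ± 0.16) had positive log2 fold changes with adjusted p = 0.113 to 0.285. Hif1a, the oxygen-regulated transcription factor subunit, ran from 76.9 to 134 CPM in control and from 138 to 199 CPM in anemic mice without overlap, and was not called (log2 fold change 0.46 ± 0.13, adjusted p = 0.192). The glucose transporter genes Slc2a1 (0.06 ± 0.19) and Slc2a3 (0.12 ± 0.16) and the hexokinase gene Hk1 (-0.07 ± 0.13) lay near 0, and Bnip3l, the relative of Bnip3, had the lowest value (-0.21 ± 0.12).

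**Figure D3:**
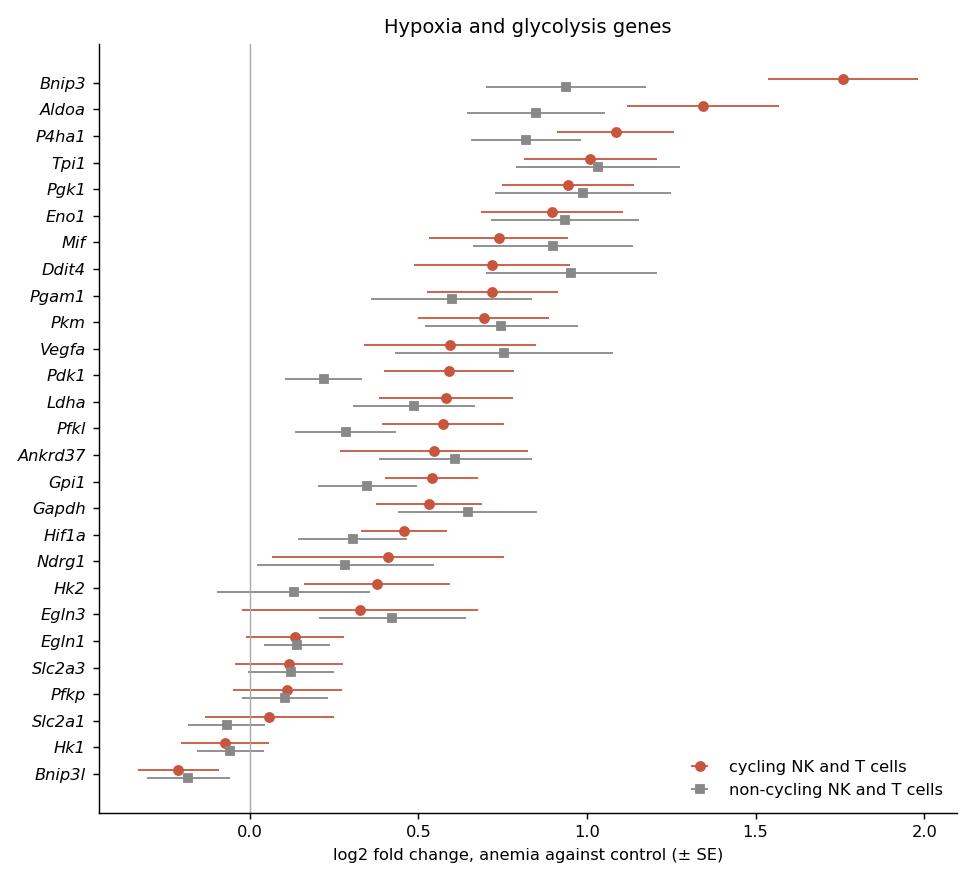
Log2 fold change (anemia against control, with SE) of the 27 hypoxia and glycolysis genes in cycling (circles) and non-cycling NK and T cells (squares), ordered by the value in cycling cells. Bnip3 reaches 1.76 in cycling and 0.94 in non-cycling cells, and 25 of 27 circles lie right of 0.

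Slc16a3, which exports lactate and was not on the list, rose with these genes. It ran from 9.11 to 23.9 CPM (median 14.4) in control and from 26.3 to 69.5 CPM (median 37.2) in anemic mice without overlap (log2 fold change 1.51 ± 0.25, adjusted p = 0.0122). The metal-binding metallothionein gene Mt1 ran from 10.9 to 37.5 CPM in control and from 47.9 to 124 CPM in anemic mice (log2 fold change 1.69 ± 0.28, adjusted p = 0.0122). Mt1 missed the threshold in T-side members alone (1.12, adjusted p = 0.652) and in members without an NK marker (1.44, adjusted p = 0.102) and passed it in members with one (2.45, adjusted p = 0.00275), and the difference between these sets was not tested. Its highest mice were anemia 3, 4 and 5, whereas Aldoa, Tpi1 and Slc16a3 were highest in anemia 2.

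**Figure D4:**
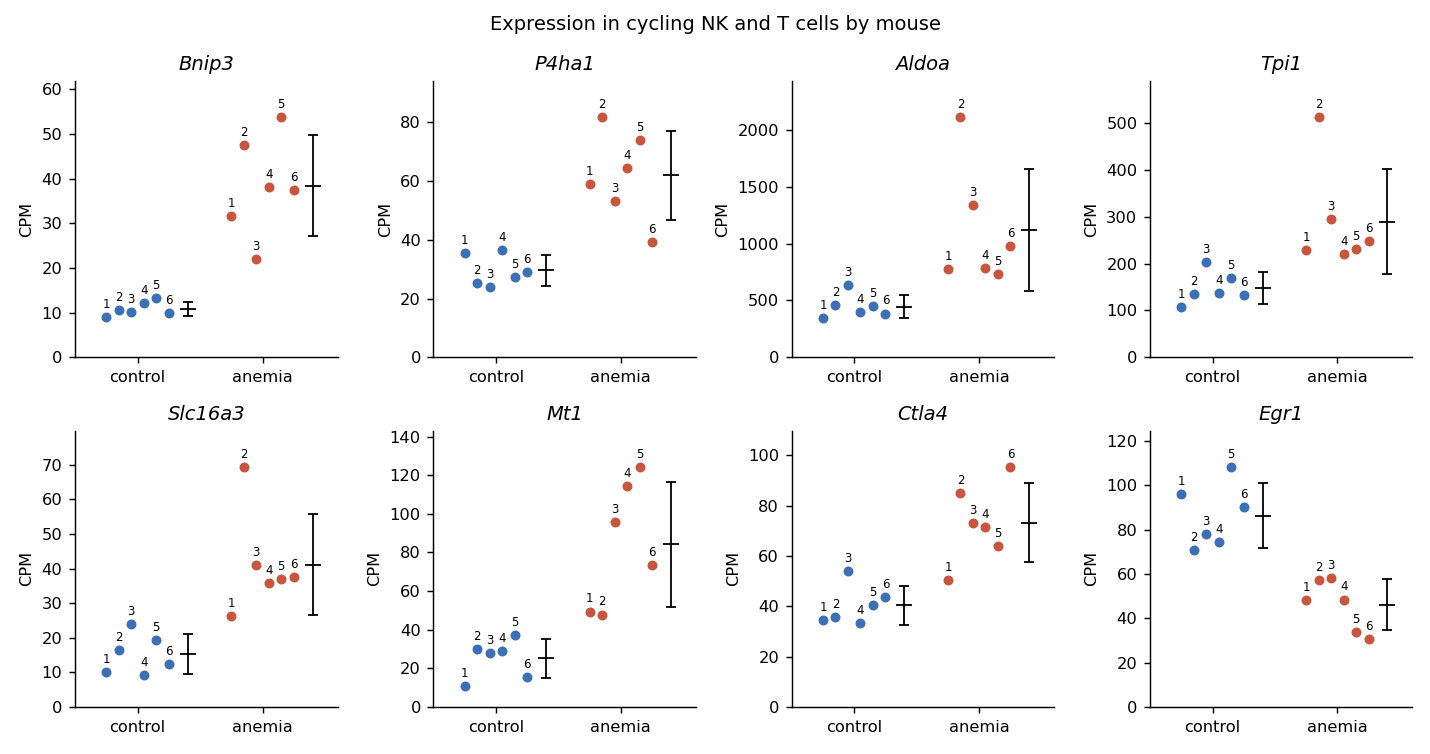
CPM per mouse in the cycling NK and T cells for 8 called genes (points, numbered by replicate; bar, mean and SD). Every anemic mouse lies above every control for Bnip3, P4ha1, Aldoa, Tpi1, Slc16a3 and Mt1 and below every control for Egr1, and for Ctla4 anemia 1 falls within the control range.

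Hypoxia-inducible factors bind DNA at a short core, written here as ACGTG or GCGTG. The promoters of Bnip3 (GRCm38.p6, chr7:138909507-138909756, minus strand, RefSeq) and P4ha1 (chr10:59323046-59323295, plus strand, RefSeq) are shown because these 2 genes had the lowest adjusted p of the list, with every match on either strand in capitals. This motif was chosen after the gene values had been seen.
Bnip3: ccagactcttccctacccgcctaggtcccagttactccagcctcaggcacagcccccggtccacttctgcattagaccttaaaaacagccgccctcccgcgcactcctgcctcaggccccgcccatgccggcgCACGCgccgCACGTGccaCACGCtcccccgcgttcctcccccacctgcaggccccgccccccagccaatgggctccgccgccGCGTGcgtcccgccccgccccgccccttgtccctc
P4ha1: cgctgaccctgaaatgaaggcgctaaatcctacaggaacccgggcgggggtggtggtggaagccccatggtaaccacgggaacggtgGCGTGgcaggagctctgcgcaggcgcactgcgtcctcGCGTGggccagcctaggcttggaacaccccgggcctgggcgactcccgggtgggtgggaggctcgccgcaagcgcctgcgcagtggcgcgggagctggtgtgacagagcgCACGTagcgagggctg
The window of Bnip3 held 5 matches, some of them overlapping on opposite strands, that of P4ha1 held 3 and that of Slc16a3 held 2. The Tpi1 window held 0, and the 3 Aldoa windows held 0, 1 and 1. In 25 of 33 promoters found for 24 of the 27 list genes the core occurred at least once (75.8%), against 38.6% of all 32851 promoters and 55.3% of those of the G2 and mitosis list. The Aldoa windows with a match overlap and share it. The list was written as hypoxia and glycolysis genes with earlier results of these data known. The share is therefore a description and says nothing about why these genes changed. A match of these letters describes the window and is not a binding site.

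The same genes had positive log2 fold changes in the non-cycling NK and T cells of the same mice, and most stood higher in the whole libraries. In the non-cycling cells 116 of 11492 genes were called (1.01%), of which 37 were higher (0.322%), 3 of them in the hypoxia list. In the same sums 5 of 9 erythroid and 3 of 15 neutrophil and monocyte genes were called higher, and 7 of 15 hepatocyte genes were called lower and 1 higher, and their part in the result was not tested. The erythroid list includes the adult globin genes that the rule reads. The hypoxia list had a median of 0.49 there, and 52.8% of all genes tested had a positive value. Bnip3 gave 0.94 (adjusted p = 0.0740), Aldoa 0.85 (adjusted p = 0.0584), P4ha1 0.82 (adjusted p = 0.0208) and Tpi1 1.03 (adjusted p = 0.0489). The difference between the anemia effects in cycling and non-cycling cells was tested in 1 edgeR fit over both kinds of sum, with the mouse as a block. No gene of 10168 was called, and 538 had an unadjusted p under 0.05 (5.29%). Aldoa had the lowest p, with an effect 0.49 ± 0.10 larger on the log2 scale in cycling cells (adjusted p = 0.528), and Bnip3 had 0.80 (unadjusted p = 0.00150). Summed over the list, the hypoxia genes reached 6330.3 ± 953 CPM in control and 9853 ± 2935 CPM in anemic members, and 4755 ± 376 and 7387 ± 2113 CPM in whole libraries. Over all cells of a library Bnip3 averaged 48.7 CPM in control and 111 in anemic mice, Aldoa 422 and 756, Tpi1 129 and 225, Slc16a3 27.6 and 66.8, and Mt1 175 and 473, but P4ha1 127 and 125. The part of RNA from other cells in these changes was not tested.

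In a split added after the data had been seen, members with an NK marker gave 52 called genes, 15 of them among the 20, and members without one gave 19, 4 of them among the 20. With an NK marker UMI, Bnip3 gave 1.56 on the log2 scale (adjusted p = 0.0345), and without one 1.90 (adjusted p = 0.00308). Aldoa gave 1.52 and 1.16 and Tpi1 1.02 and 1.02, each called in both. P4ha1 (1.18 and 0.96) and Slc16a3 (1.78 and 1.29) were called in the first set alone, with adjusted p = 0.0921 and 0.0746 in the second, and the difference between the sets was not tested.

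Among genes of lymphocyte function, Ctla4 rose. This inhibitory receptor of activated T cells ran from 33.4 to 54.2 CPM (median 38.2) in control and from 50.5 to 95.5 CPM (median 72.2) in anemic mice. Anemia 1 overlapped with the controls and the other 5 lay above them (log2 fold change 0.87 ± 0.16, adjusted p = 0.0254), and 6 of the 12 single-mouse omissions ended the call. Its log2 fold change passed the threshold in members with an NK marker (1.59, adjusted p = 0.0164) and missed it in T-side members alone (0.88, adjusted p = 0.0531), in members without an NK marker (0.71, adjusted p = 0.102) and with thresholds of 3 UMIs (0.97, adjusted p = 0.0523). The difference between these sets of members was not tested. It was the only called gene among the 25 tested genes of T cell identity and receptor, whose median was -0.09. In the non-cycling cells it had 0.35 (adjusted p = 0.422). The difference of the effects had an unadjusted p = 0.0197 in the edgeR fit over both kinds of sum. That fit called no gene, and 5.29% of all genes had an unadjusted p under 0.05 there.

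Egr1, an immediate early gene induced by antigen receptor signals and by handling of cells, fell. It ran from 70.6 to 108 CPM (median 84.2) in control and from 30.7 to 58.2 CPM (median 48.4) in anemic mice without overlap (log2 fold change -0.80 ± 0.15, adjusted p = 0.0331). The other 20 tested genes of the immediate early and heat shock list were not called and the list median was -0.19. Over whole libraries Egr1 averaged 692 CPM in control and 481 in anemic mice. Pde10a, a phosphodiesterase that breaks down cyclic nucleotides, fell from 43.8 ± 5.60 to 20.6 ± 8.33 CPM without overlap (log2 fold change -1.20 ± 0.24, adjusted p = 0.0469). It was 3.40 times higher in members than in non-cycling cells, where its log2 fold change was -0.11. Egr1 kept its call in 5 and Pde10a in 3 of the 12 single-mouse omissions. Egr1 missed the threshold in members with an NK marker alone (-0.65, adjusted p = 0.141), in those without one (-0.91, 0.118), in T-side members (-0.92, 0.128), with thresholds of 3 UMIs (-0.91, 0.0743) and with the replicate number as a block (-0.80, 0.0549). Pde10a missed it in members with an NK marker alone (-1.10, adjusted p = 0.442), in those without one (-1.24, 0.0842) and with thresholds of 3 UMIs (-1.14, 0.101), and passed it in T-side members (-1.34, 0.0359). Both also missed it once cells with markers of other types were left out (adjusted p = 0.251 and 0.366).

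The smallest p belonged to Gm10076 (chr14:105681828-105682211, plus strand), annotated as a long intergenic non-coding RNA. It ran from 93.5 to 128 CPM in control and from 202 to 344 CPM in anemic mice (log2 fold change 1.29 ± 0.13, adjusted p = 7.18e-05) and had 1.06 in non-cycling cells (adjusted p = 0.000815). Over whole libraries it averaged 83.6 CPM in control and 162 in anemic mice. Fabp4, a lipid carrier of fat and endothelial cells, averaged 28.1 ± 18.6 and 107 ± 62.5 CPM with overlap (log2 fold change 1.78 ± 0.35, adjusted p = 0.0399). Its call held in 5 of the 12 single-mouse omissions, with adjusted p up to 0.120. It stood at 1155 and 2672 CPM in whole libraries.

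Of the 11 genes that fell, 9 are known mainly from hepatocytes or gut and liver epithelium. The metabolic genes Car3, Cyp2e1, Gsta3, Akr1c6 and Fabp2, the asialoglycoprotein receptor gene Asgr1, the secreted proteins Mbl2 and Serpina1c and the class I gene H2-Q10 had log2 fold changes from -3.25 to -1.61. These 9 were grouped after they had been called. H2-Q10 and Fabp2 kept their calls in all 12 single-mouse omissions and Akr1c6 in 11, against 8 for Car3, 6 for Gsta3, 4 for Cyp2e1, 3 for Asgr1 and Mbl2, and 2 for Serpina1c. In T-side members alone the 7 other than Fabp2 and Asgr1, which were not tested there, all missed the threshold (log2 fold changes from -3.32 to -0.94, adjusted p = 0.143 to 0.701), as they did in members without an NK marker (-3.32 to -1.02, adjusted p = 0.118 to 0.509). All 7 passed it in members with an NK marker (-3.12 to -2.10, adjusted p = 0.00167 to 0.0143). The difference between these sets was not tested. DESeq2 did not call Serpina1c (-1.34, adjusted p = 0.178), and limma voom did not call Car3 (-3.12, adjusted p = 0.0848). Serpina1c, the most abundant of them, ran from 122 to 207 CPM in control and from 20.8 to 144 CPM in anemic mice, and H2-Q10 from 13.9 to 22.8 and from 3.46 to 6.72 CPM. Of the 15 tested genes of the hepatocyte list 1 was called (Cyp2e1), 14 had negative log2 fold changes and the median was -0.95. In non-cycling cells, where 0.687% of all tested genes were called lower and 0.322% higher, 7 were called lower and 1 higher, with a median of -0.87. Summed, the hepatocyte list gave 3402 to 4443 CPM in control and 636 to 5600 CPM in anemic members, and 12331 to 20358 and 4948 to 21250 CPM in whole libraries. The defining genes of hepatocytes should be silent in lymphocytes, and the part of free RNA in these calls was not tested.

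The lists of other cell types held no call apart from Cyp2e1. The 11 tested erythroid genes all had positive log2 fold changes with a median of 0.82, and the sum of the list ran from 604 to 3126 CPM in control and from 1671 to 3320 CPM in anemic members. This list includes the adult globin genes that the rule reads, so its values are a description. The 15 neutrophil and monocyte genes had a median of 0.58 (Mpo 1.39 ± 0.61, Camp -2.24 ± 0.52). Their sum ran from 541 to 3184 CPM in control and from 821 to 6578 CPM in anemic members, highest in anemia 6. The 5 dendritic, mast and megakaryocyte genes had a median of 0.97 (Pf4 3.42 ± 0.87). The sum of that list ran from 46.5 to 177 and from 72.8 to 536 CPM, highest in anemia 6 (536) and anemia 4 (493). The 7 endothelial and stellate genes had a median of -1.70 (Dcn -3.31 ± 0.75), with sums of 239 to 682 and 162 to 342 CPM. The 8 macrophage genes had a median near 0 and the 6 B lineage genes -0.15. Cells with at least 2 UMIs of 14 markers of other types made up 4.95 ± 1.79% of control and 8.79 ± 4.71% of anemic members (exact p = 0.0931). Leaving them out gave 23 called genes, 16 of them among the 20, with the hypoxia list at a median of 0.56 and 5 calls. It ended the calls of Egr1 (-0.55, adjusted p = 0.251), Pde10a (-0.86, adjusted p = 0.366), Asgr1 (-2.02, adjusted p = 0.0547) and Serpina1c (-1.59, adjusted p = 0.0700).

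The cell cycle genes themselves showed no call. The 35 S phase genes had a median log2 fold change of 0.06, with Hells, a chromatin remodeller of replicating cells, at the top (0.45 ± 0.13, adjusted p = 0.215). Of these S phase genes 23 were positive and 12 negative. The 42 genes of G2 and mitosis had a median of -0.11 and ran from -0.27 (Bub1) to 0.17, with 7 positive and 35 negative. The 13 tested cell cycle brakes had a median of -0.10, with 2 positive and 11 negative. Over all genes tested 51.8% were positive. Members were chosen by Top2a and Mki67, so the levels of cell cycle genes are not free of the rule.

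NK and effector genes showed no call either. The 25 genes of NK and innate lymphoid identity had a median of -0.12. Klra7, an inhibitory NK receptor, averaged 184 ± 32.9 CPM in control and 97.1 ± 42.2 in anemic mice (log2 fold change -0.82 ± 0.20, adjusted p = 0.128). The 18 cytotoxic and effector genes had a median of 0.10, with the death ligand gene Fasl at -0.50 ± 0.16. Perforin varied most, from 18.9 to 35.3 CPM in control and from 5.11 to 180.2 CPM in anemic mice, with anemia 2 and anemia 3 above and anemia 4, 5 and 6 below every control (adjusted p = 0.361). Those 2 mice also held the largest cycling shares and the most doubly marked cells.

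**Figure D5:**
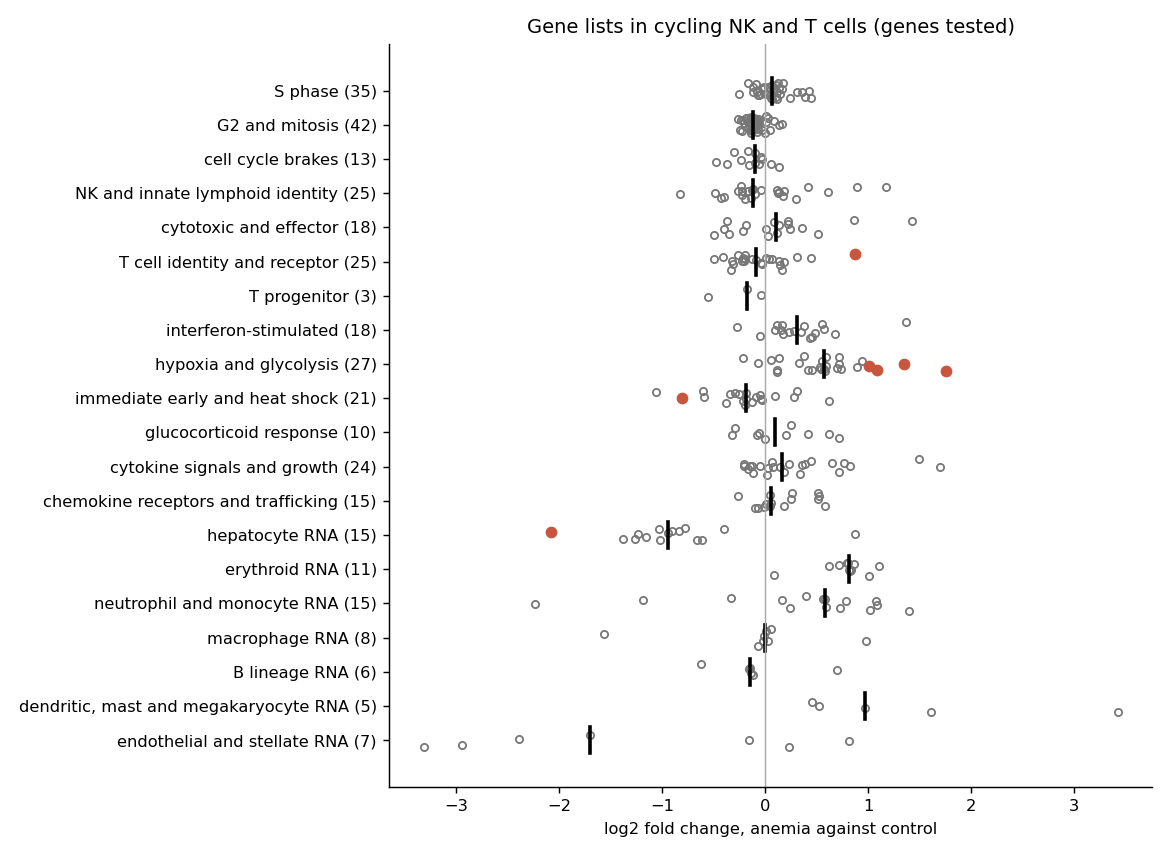
Log2 fold change (anemia against control) of each tested gene in the cycling NK and T cells, by list, with the number of genes tested in brackets, the median as a bar and called genes filled. The filled points are 4 hypoxia and glycolysis genes, Ctla4, Egr1 and 1 hepatocyte gene.

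Of the 25 tested genes of T cell identity and receptor, 10 had positive and 15 negative log2 fold changes. Among the marker genes of T cells that did not pass the test, Trbc1 was lower in each anemic mouse than in any control (-0.33 ± 0.10, adjusted p = 0.216), Cd3d -0.31 ± 0.10 and Trdc -0.50 ± 0.25. The 3 tested T progenitor genes had a median of -0.18. The 18 interferon-stimulated genes had a median of 0.31, with 16 positive, and Isg20 led with 1.37 ± 0.43 (adjusted p = 0.243). The 24 genes of cytokine signals and growth had 0.16, among them Il2ra, the alpha chain of the interleukin receptor of activated T cells (8.45 ± 5.16 against 24.5 ± 16.9 CPM, adjusted p = 0.133), Pim2 (1.49 ± 0.49) and the survival gene Bcl2 (0.44 ± 0.14). The 15 chemokine receptor and trafficking genes had 0.05, with Ccr2 at 0.58 ± 0.18 (adjusted p = 0.235), and the 10 glucocorticoid response genes had 0.10.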

How the data were processed

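Single cells of 12 mouse livers (6 control, 6 anemic, 1 library each) were profiled with a 10x Genomics 3′ kit, whose version the labels and the design text give differently. As deposited by the authors, values are raw UMI counts per gene and barcode from Cell Ranger 7.0.0 (per the file headers), with mm10 among the builds in the submitters' processing notes and no normalization. The authors used Seurat with up to 50% mitochondrial UMIs, where 20% was used here. Libraries held 45155527 to 74050493 UMIs, and a gene at 0 UMIs may be present below this depth. No doublet caller was run. Cells with at least 2 UMIs of 14 markers of other types were left out as an alternative.

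Shares were compared with exact two-sided Mann-Whitney tests. Summed counts were tested with edgeR 4.0.16 (quasi-likelihood, TMM, R 4.3.3) for genes that averaged 5 or more UMIs across mice, without mitochondrial and ribosomal protein genes, and Benjamini-Hochberg adjustment over all genes tested. Alternatives used DESeq2 1.42.0 and voom with quality weights of limma 3.58.1, a tool the study also used, there in 1 fit over its cell types. Scripts ran in Python 3.11.15 (numpy 2.4.6, scipy 1.17.1, pandas 2.3.3, matplotlib 3.10.9) and were tested on simulated counts. CPM were computed from the summed cells of a mouse. The symbol Aldoa occurs for 2 identifiers, of which ENSMUSG00000030695 was used. The members, the 20 gene lists and the tests were chosen with earlier results of these data known. Named were the genes of the rule, up to 10 called genes per direction with the largest change and at least 10 CPM, and, of each list, called members or up to 3 of lowest p, with the whole hypoxia list added after its values were seen. Coordinates are from GENCODE M21 and promoters from RefSeq.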

Additional observations from a re-analysis of the deposited data

Results flagged for a closer look

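A sample was marked when its gap to the nearest mouse of its group of 6 passed the 95% critical value of Dixon for that number. Of 148 groups tested, 26 held such a sample, and chance gives about 1 in 20. The genes share libraries and are not independent.

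Control 3 stood apart within the control group for several glycolysis genes: Pkm at 794 CPM, Ldha at 882, Eno1 at 556, Pgk1 at 442, Gapdh at 3274, Gpi1 at 373 and Ddit4 at 49.2 CPM were its highest values, and Hif1a at 76.9 CPM its lowest. Cd3e, a gene of the rule, was also highest in control 3 (810.4 CPM). Anemia 2 stood apart within the anemic group for Tpi1 (513 CPM), Pkm (1585), Ldha (1638), Mif (912), Slc16a3 (69.5), Il2ra (56.0) and Pim2 (62.5 CPM). Anemia 5, with the fewest cells, stood apart for Cyp2e1 (30.3 CPM), Bcl2 (427), Hk1 (90.8) and Slc2a3 (53.8 CPM), each at the top of the anemic group.

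Single values that stood apart were Fabp4 in control 5 (65.8 CPM), Asgr1 in control 4 (6.07 CPM, the lowest), Hells in control 4 (103 CPM), Prf1 and Isg20 in control 2 (35.3 and 8.83 CPM) and Hbb-bs in control 6 (1594 CPM).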

How the results depend on the processing

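The count of 20 called genes became 42 with DESeq2, 54 with limma voom and quality weights, 127 with no filter on low counts, 10 with a mean of at least 20 UMIs, 32 with Y-linked expression as covariate and 46 with a mitochondrial limit of 10%. In NK-side members alone 2 of 906 genes were called, and in members with an NK marker 52 of 8798 (the sets with and without an NK marker were chosen after seeing the data). Leaving out 1 mouse gave 9 to 43 called genes in cycling cells, lowest without control 5 and highest without anemia 5, with 11 without control 1 or control 2, 13 without control 4 and 10 without anemia 6. In non-cycling cells it gave 48 to 132, with 48, 60, 77 and 51 without control 1, 3, 4 and 5. The interaction had 0 calls in every leave-one-out fit. Gm10076, Bnip3, H2-Q10, Fabp2, P4ha1, Mt1, Slc16a3 and Aldoa kept their calls in all 12 of these fits. The median of the hypoxia list was 0.37 without anemia 2 and 0.53 to 0.62 without any other mouse. The cause of these changes was not tested.

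The difference in the cycling share was 3.68 percentage points (0.148 to 6.14 when 1 mouse was left out) and -4.51 in thinned cells. Among kept cells it was -0.0739 (-0.326 to 0.126 when 1 mouse was left out, positive without control 2 and without anemia 4, 5 or 6, at 0.0425, 0.0270, 0.126 and 0.0661), and 0.137 with globin-rich cells out of the denominator. The NK-side difference turned to 1.39 with classes from 2 UMIs. With those classes the T-side difference was -7.51 (exact p = 0.0238, not adjusted over the classes or for depth). The other share differences here did not pass their tests.

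Replicate numbers were not taken to pair the mice: same-numbered deviations correlated from -0.114 to 0.0952 over genes and at 0.246 for the cycling share, and 2 of 12 mice correlated best with their own number. With the replicate block 38 genes were called in cycling cells (17 higher, 21 lower), 17 of them among the 20, with Egr1, Asgr1 and Mbl2 no longer called (adjusted p = 0.0549 for each), and 168 in non-cycling cells, and sign-flip permutation tests over replicate-number pairs gave exact p = 0.406 and 0.781 for the shares of 3.68 and -0.0739 points.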
